A study of Danio rerio with 8 samples.

Results

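Iron handling genes of the zebrafish spinal cord were described around slc40a1, which encodes ferroportin. There were 9 such genes among the 25309 entries of the deposited table, matched by symbol. They are slc40a1 and cp for iron export, slc11a2, tfr1a and tfr1b for uptake, fth1a for storage, hmox1a for haem breakdown, and aco1 and ireb2 for iron sensing. The set was chosen on measured values: it was built around slc40a1 because its CPM (the read count of a gene scaled to the size of its library) was lower in every mutant library than in every wild type library. The genotype difference of slc40a1 is therefore given as a description with no test.

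The 8 libraries came from spinal cord of adult zebrafish in 4 groups of 2: mstnb mutant (-/-) 1 week post injury (1 wpi), wild type sibling 1 wpi, mutant uninjured and wild type sibling uninjured. mstnb encodes a myostatin, a secreted growth factor of the TGF-beta family, and the study profiled its loss in cord with and without complete transection, under a title on adult neurogenesis. Fish of both sexes, 3 to 9 months old, gave a 2 mm piece of cord, taken around the lesion or, in uninjured fish, at 4 mm behind the brainstem. The labels state neither the mutant allele nor the number of fish behind a library. A p-value here therefore speaks of the spread from library to library, part of which may be technical.

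Ferroportin is the known exporter of iron from animal cells. In mammals the liver hormone hepcidin binds it and has it degraded, and the copper enzyme ceruloplasmin oxidises the iron it releases so that transferrin can carry it. Iron enters cells through the transferrin receptor and the transporter DMT1, is stored in ferritin, and is recovered from haem by haem oxygenase, a main task of macrophages that clear red cells and cell debris. The RNA-binding iron regulatory proteins set the translation and stability of several of these messages, so a transcript level need not follow the protein level.

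Depth ranged from 20082743 to 33410514 reads, and 1 read was worth 0.0498 CPM in the shallowest library. mstnb itself had 11.9 and 17.7 CPM in mutant 1 wpi libraries against 45.2 and 42.2 CPM in wild type 1 wpi libraries, and 10.2 and 26.4 CPM in uninjured mutant libraries against 48.8 and 74.8 CPM in uninjured wild type libraries, so the targeted transcript was lower under each mutant label. Cord markers such as mbpa of myelin were present in all libraries. Across genes, log2 values of the 2 libraries of a group correlated at 0.978 in mutant 1 wpi, 0.977 in wild type 1 wpi, 0.959 in uninjured mutants and 0.902 in uninjured wild type. Uninjured wild type 1 stood apart by liver markers (16 genes), whose summed level was 1883 CPM there and 19.3 to 408 CPM in the other libraries. Oocyte markers (15 genes) summed to 1656 CPM in mutant 1 wpi 1 and 1419 CPM in uninjured wild type 1, against 11.7 to 472 CPM elsewhere. Of these defining markers, the liver genes fgg and uox and the oocyte genes zar1l and gdf9 were at 0 in at least 1 library.

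slc40a1 was low in mutant cord whether or not it was injured. It had 7.67 and 9.03 CPM in mutant 1 wpi libraries, against 41.2 and 50.3 CPM in wild type 1 wpi libraries. In uninjured cord it had 7.57 and 9.82 CPM in mutants, against 37.8 and 27.3 CPM in wild type. The 4 mutant libraries lay close together and far under the lowest wild type library, and no library overlapped with the other genotype. Group means were 8.35 ± 0.961 CPM in mutants and 45.8 ± 6.40 CPM in wild type at 1 wpi, a ratio of 0.183 (SD, n = 2 each). Uninjured, they were 8.70 ± 1.59 CPM in mutants and 32.6 ± 7.47 CPM in wild type, a ratio of 0.267 (SD, n = 2 each). On the log2(CPM + 1) scale the mutant minus wild type difference was -2.32 at 1 wpi and -1.78 uninjured. Leaving out any 1 library gave between -2.46 and -2.18 at 1 wpi and between -2.01 and -1.55 uninjured. slc40a1 was chosen because its mutant libraries lay below its wild type ones, so nothing is read from these ranges. The order of the 4 group means was mutant 1 wpi, mutant uninjured, wild type uninjured, wild type 1 wpi, and the 2 mutant groups overlapped. These values rest on 168 to 1045 reads per library. In bulk RNA, fewer cells of a type that expresses a gene and less of its RNA per cell cannot be told apart.

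**Figure D1:**
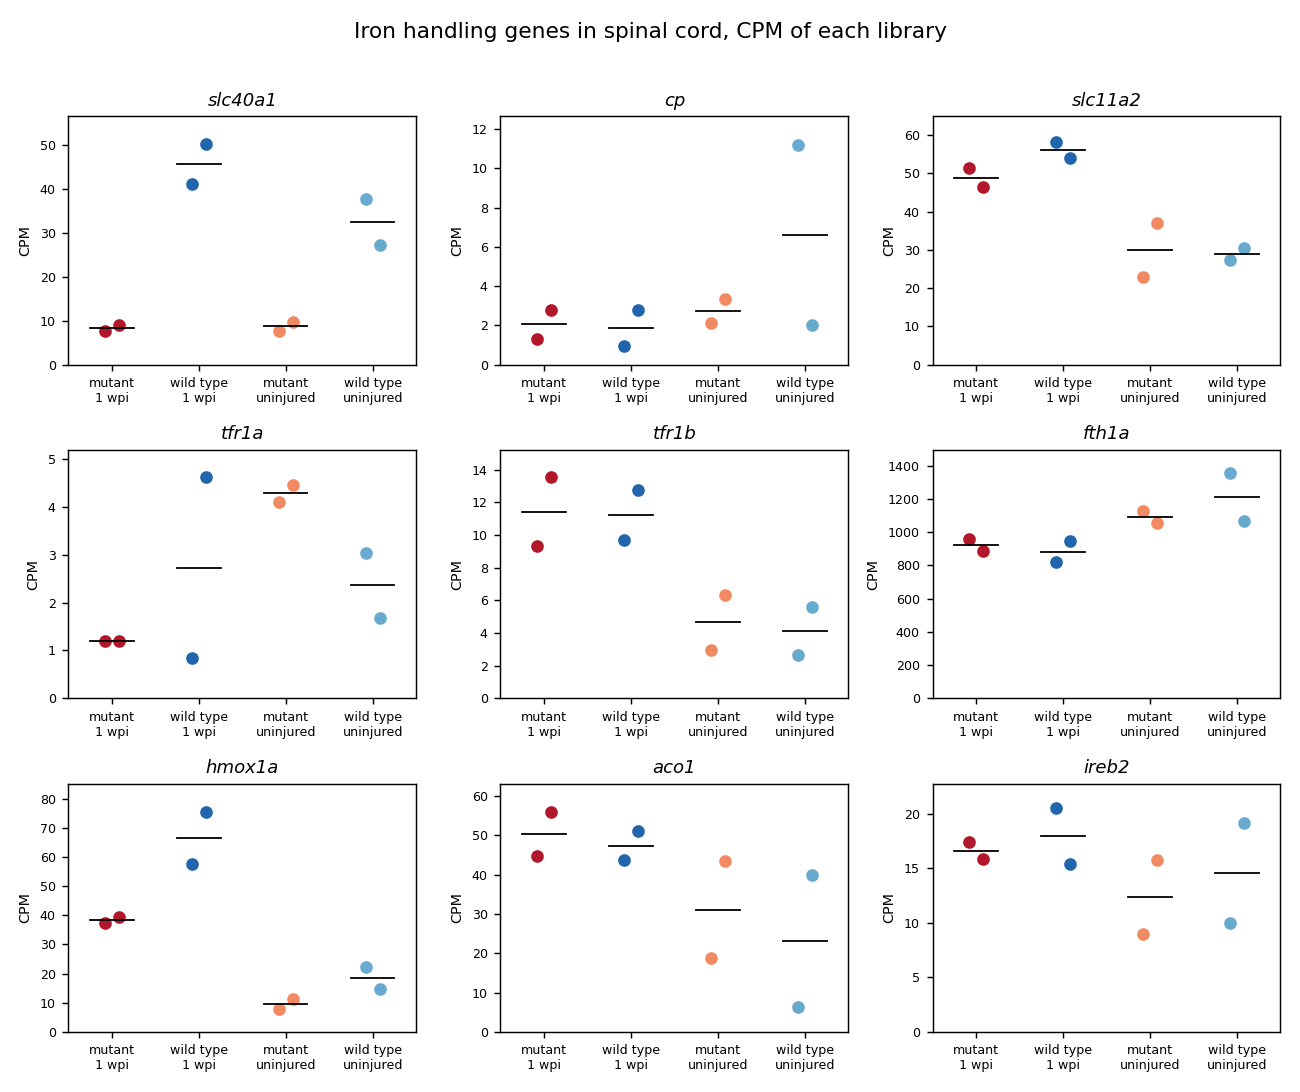
CPM of the 9 iron handling genes in each library (dots) with the group mean (line), for mutant 1 wpi, wild type 1 wpi, mutant uninjured and wild type uninjured, 2 libraries each; every axis is linear and starts at 0. The mutant libraries of slc40a1 lie at 7.57 to 9.82 CPM, under all wild type libraries at 27.3 to 50.3 CPM, while hmox1a is high in the injured groups of each genotype.

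Injury was tested with limma on log2(CPM + 1) over 19114 genes, and a gene was called at a Benjamini-Hochberg adjusted p under 0.05. The median of all tested genes moved up with injury, by 0.29 in wild type and by 0.37 in mutants on the log2 scale, and TMM scaling (which balances libraries by their typical gene) took these medians to 0.05 and 0.01. Reads of mitochondrial genes made up 13.2 to 13.3% in mutant 1 wpi, 12.6 to 13.1% in wild type 1 wpi, 21.5 to 32.8% in uninjured mutants and 22.6 to 23.4% in uninjured wild type. Skeletal muscle markers (17 genes) summed to 3430 to 3732 CPM in mutant 1 wpi, 1578 to 2103 CPM in wild type 1 wpi, 14275 to 14876 CPM in uninjured mutants and 7922 to 29089 CPM in uninjured wild type. Both measures were thus lower in every injured library, and their part in the injury changes was not tested. Injury changes are therefore given relative to the median of all genes, while the adjusted p belongs to the change as fitted. For slc40a1 the change 1 week after transection was -0.41 ± 0.34 in mutants (SE, limma adjusted p = 0.959) and 0.20 ± 0.34 in wild type (SE, limma adjusted p = 0.450). Neither passed the test. The interaction (mutant injury change less wild type injury change) was -0.54 ± 0.48 as fitted (SE, limma adjusted p = 1.00). The 2 injured wild type libraries lay above the 2 uninjured ones, whereas the mutant libraries overlapped. The mean change over both genotypes, 0.22 as fitted, was negative under TMM scaling, edgeR and DESeq2.

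cp, which encodes the ferroxidase ceruloplasmin, was the other export gene. It had 1.32 and 2.78 CPM in mutant 1 wpi libraries, 0.946 and 2.79 CPM in wild type 1 wpi libraries, 2.13 and 3.35 CPM in uninjured mutants and 11.2 and 2.02 CPM in uninjured wild type. A single library, uninjured wild type 1, was high, and the same library had the highest liver marker sum of all. Transcripts of tfa, the plasma iron carrier transferrin made in liver, peaked in that library too, at 311 CPM. The part of liver RNA in the cp values was not tested. Relative to all genes, the injury change of cp was -0.68 ± 0.62 in mutants (SE, limma adjusted p = 0.827) and -1.45 ± 0.62 in wild type (SE, limma adjusted p = 0.335).

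Among the uptake genes, slc11a2 and tfr1b were higher in injured cord and tfr1a was not. slc11a2, which encodes the ferrous iron transporter DMT1, had 51.4 and 46.4 CPM in mutant 1 wpi libraries against 22.9 and 37.0 CPM in uninjured mutants. Wild type libraries had 58.3 and 53.9 CPM at 1 wpi against 27.3 and 30.4 CPM uninjured. In each genotype both injured libraries lay above both uninjured ones. Within a genotype, injured libraries lay above uninjured ones for 45.3% of all genes in mutants and 36.7% in wild type. Averaged over genotypes the rise was 0.83 as fitted (limma adjusted p = 0.0301), or 0.52 ± 0.22 relative to all genes (SE). That call was lost under TMM scaling (adjusted p = 0.109 with limma), with edgeR (0.120) and with DESeq2 (0.107). It was also lost without mutant 1 wpi 1, mutant 1 wpi 2, wild type 1 wpi 1, wild type 1 wpi 3 or uninjured mutant 1.

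tfr1b, a transferrin receptor gene, had 9.32 and 13.5 CPM in mutant 1 wpi libraries against 2.93 and 6.35 CPM in uninjured mutants. Wild type libraries had 9.71 and 12.8 CPM at 1 wpi against 2.63 and 5.55 CPM uninjured. Mutant and wild type libraries were near each other in each state, and in each genotype the injured and uninjured libraries did not overlap. Within a genotype, injured libraries lay above uninjured ones for 45.3% of all genes in mutants and 36.7% in wild type. Averaged over genotypes tfr1b rose by 1.25 as fitted (limma adjusted p = 0.0281), or 0.94 ± 0.33 relative to all genes (SE). That call was lost with edgeR (adjusted p = 0.0581), without any 1 of the 4 injured libraries and without uninjured mutant 1. Within a genotype the change did not pass, at 0.82 ± 0.46 in mutants (SE, limma adjusted p = 0.203) and 1.03 ± 0.46 in wild type (SE, limma adjusted p = 0.142).

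tfr1a, the paralogue used by zebrafish red cell precursors for transferrin iron, was scarce, with 17 to 137 reads per library. It had 1.19 and 1.19 CPM in mutant 1 wpi libraries, 0.846 and 4.62 CPM in wild type 1 wpi libraries, 4.101 and 4.47 CPM in uninjured mutants and 3.03 and 1.69 CPM in uninjured wild type. Both injured mutant libraries lay under both uninjured mutant libraries, while the 2 injured wild type libraries lay on either side of the uninjured ones. The change was -1.64 ± 0.52 in mutants (SE, limma adjusted p = 0.228) and -0.32 ± 0.52 in wild type (SE, limma adjusted p = 0.981), and in wild type its direction as fitted depended on single libraries. Erythrocyte markers (13 measured, none at 0 in any library) summed to 1074 to 1079 CPM in mutant 1 wpi, 1098 to 1364 CPM in wild type 1 wpi, 6067 to 8210 CPM in uninjured mutants and 1716 to 5690 CPM in uninjured wild type. In mutants both tfr1a and the marker sum were lower in the injured libraries, whereas in wild type the marker sum was lower after injury and tfr1a overlapped, with its highest value of all 8 libraries in wild type 1 wpi 3, where the marker sum was 1364 CPM. The part of red cells in the tfr1a values was not tested.

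fth1a, which encodes a ferritin heavy chain, the ferroxidase subunit of the iron store, had 960 and 887 CPM in mutant 1 wpi libraries against 1127 and 1056 CPM in uninjured mutants. In wild type, fth1a had 818 and 945 CPM at 1 wpi against 1358 and 1069 CPM uninjured. In each genotype both injured libraries lay below both uninjured ones. Within a genotype, injured libraries lay below uninjured ones for 7.48% of all genes in mutants and 13.0% in wild type. The change relative to all genes was -0.61 ± 0.26 in mutants (SE, limma adjusted p = 0.669), -0.74 ± 0.26 in wild type (SE, limma adjusted p = 0.365) and -0.66 ± 0.18 averaged over both (SE, limma adjusted p = 0.243). None of these passed in limma, whereas DESeq2 called the average at an adjusted p of 0.00860.

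hmox1a, which encodes the inducible haem oxygenase, rose with injury in both genotypes. It had 37.3 and 39.4 CPM in mutant 1 wpi libraries against 7.90 and 11.3 CPM in uninjured mutants. In wild type it had 57.5 and 75.5 CPM at 1 wpi against 22.1 and 14.8 CPM uninjured. In each genotype both injured libraries lay above both uninjured ones, as for 45.3% of all genes in mutants and 36.7% in wild type. The rise relative to all genes was 1.54 ± 0.34 in mutants (SE, limma adjusted p = 0.0122) and 1.52 ± 0.34 in wild type (SE, limma adjusted p = 0.0132). As fitted, these are 3.76-fold in mutants and 3.502-fold in wild type on the CPM + 1 scale, and the interaction was 0.10 ± 0.48 (SE, limma adjusted p = 1.00). The call in mutants was lost with edgeR (adjusted p = 0.0622) and without mutant 1 wpi 1 (0.159), mutant 1 wpi 2 (0.132) or uninjured mutant 1 (0.120). In wild type it was lost without wild type 1 wpi 1 (limma adjusted p = 0.116), without wild type 1 wpi 3 (0.211) and in a fit of the 2 groups alone (0.0685).

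Within each injury state hmox1a was also lower in the mutant libraries than in the wild type libraries, with no overlap. So were 15.6% of all genes at 1 wpi and 15.7% uninjured. The mean was 38.4 ± 1.498 CPM in mutants and 66.5 ± 12.7 CPM in wild type at 1 wpi, a ratio of 0.577 (SD, n = 2 each). Uninjured, it was 9.62 ± 2.43 CPM in mutants and 18.4 ± 5.14 CPM in wild type, a ratio of 0.521 (SD, n = 2 each). The log2 difference was -0.77 ± 0.34 at 1 wpi (SE, limma adjusted p = 1.00) and -0.87 ± 0.34 uninjured (SE, limma adjusted p = 0.982). Neither passed the test over all genes, and neither did so with edgeR or DESeq2. In the authors' deposited table, hmox1a differed by -0.86 on the log2 scale (mutant against wild type) at 1 wpi (adjusted p = 1.12e-08) and by -0.85 uninjured (adjusted p = 2.70e-07), from a test whose settings are unknown here. That test passed many genes: of the 25309 entries, 1457 had an adjusted p under 0.05 at 1 wpi and 5478 uninjured.

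Macrophage and microglia markers (20 genes, none at 0 in any library) moved with hmox1a. Their sum was 16311 to 19335 CPM in mutant 1 wpi, 19472 to 21767 CPM in wild type 1 wpi, 1954 to 2493 CPM in uninjured mutants and 2774 to 3215 CPM in uninjured wild type. The mutant sums thus lay below the wild type sums in each injury state, as for hmox1a and slc40a1. A single gene, apoeb, which encodes an apolipoprotein E, carried 76.5 to 78.6% of the sum in injured and 27.4 to 39.8% in uninjured libraries. The other 19 summed to 3837 to 4135 CPM in mutant 1 wpi, 4271 to 4652 CPM in wild type 1 wpi, 1236 to 1502 CPM in uninjured mutants and 2014 to 2189 CPM in uninjured wild type, in the same order. That sum is also weighted to few genes. Of the 19, cd74a was highest, at 706 to 3360 CPM over the 8 libraries, and cd74b next, at 160 to 504 CPM. With injury 7 of the 20 rose in mutants (3.19% of all genes were called) and 8 in wild type (3.86%) by limma, with medians of 1.37 and 1.11 on the log2 scale as fitted. Between genotypes their median log2 difference was -0.07 at 1 wpi and -0.13 uninjured, against 0.02 and -0.06 over all genes, so the class as a whole was not shown to be lower in mutants. The part of these cells in the hmox1a and slc40a1 values was not tested.

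aco1 and ireb2 encode the iron regulatory proteins, the protein of aco1 also serving as the cytosolic aconitase when it carries an iron-sulphur cluster. aco1 had 44.8 and 56.0 CPM in mutant 1 wpi libraries, 43.6 and 51.2 CPM in wild type 1 wpi libraries, 18.7 and 43.4 CPM in uninjured mutants and 6.34 and 39.99 CPM in uninjured wild type. In each genotype the injured libraries lay above the uninjured ones, as for 45.3% of all genes in mutants and 36.7% in wild type. They lay barely above uninjured mutant 2 and wild type 2, and library 1 of each uninjured group was much the lower. The change was 0.42 ± 0.63 in mutants (SE, limma adjusted p = 0.554) and 1.19 ± 0.63 in wild type (SE, limma adjusted p = 0.227). A fit without uninjured wild type 2 leaves uninjured wild type 1, at 6.34 CPM, alone in its group. As fitted there, aco1 rose by 2.72 with injury in wild type on the log2 scale. In the same fit uninjured mutants lay above uninjured wild type by 2.01. No call is read from that fit.

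ireb2 had 17.4 and 15.8 CPM in mutant 1 wpi libraries, 20.5 and 15.4 CPM in wild type 1 wpi libraries, 9.01 and 15.8 CPM in uninjured mutants and 9.95 and 19.2 CPM in uninjured wild type. Libraries numbered 1 in the uninjured groups were the low ones here as well. The change relative to all genes was 0.07 ± 0.41 in mutants (SE, limma adjusted p = 0.611) and 0.05 ± 0.41 in wild type (SE, limma adjusted p = 0.682).

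**Figure D2:**
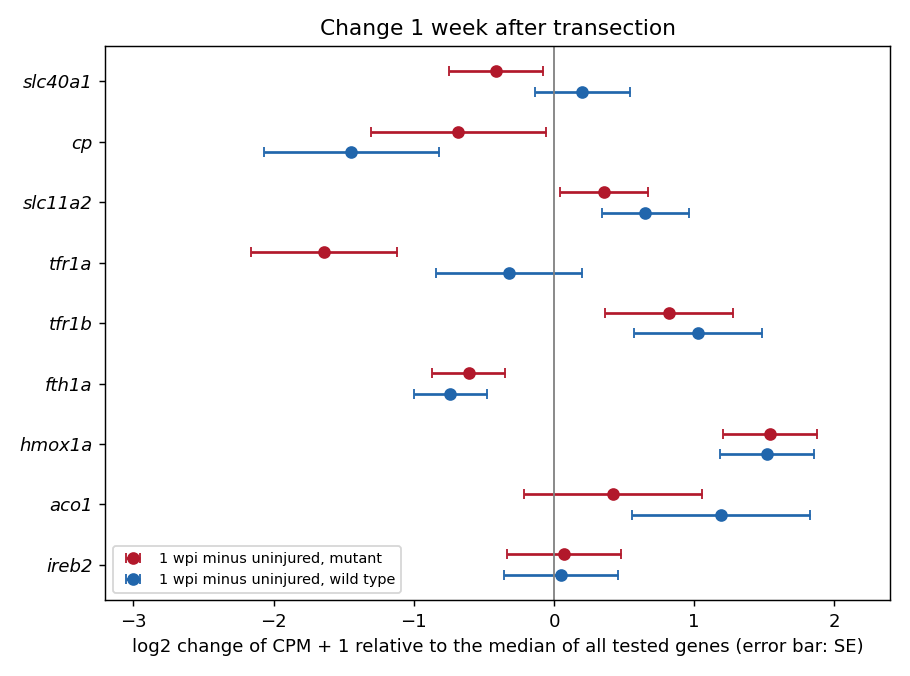
Change of the 9 genes 1 week after transection (dots, log2 of CPM + 1, relative to the median of all tested genes) with limma standard errors, in mutants above wild type for each gene. hmox1a stands near 1.54 in mutants and 1.52 in wild type, fth1a is negative in each genotype, and the slc40a1 dots lie at -0.41 and 0.20, on either side of 0.

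Counted over the 9 genes, injury gave 1 call in mutants, hmox1a, where 3.19% of all tested genes were called, and 1 call in wild type, again hmox1a, where 3.86% were. Averaged over genotypes 3 of 9 were called and all 3 were higher (hmox1a, slc11a2 and tfr1b), where 12.2% of all genes were. With edgeR the average gave 1 call (7.86% of all genes were called) and with DESeq2 4 (14.4%), in which fth1a and cp were lower. For the interaction, 0 of 9 passed in limma, edgeR or DESeq2, 0 of 9 had an unadjusted limma p under 0.05, and 0.565% of all genes were called.

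Between genotypes 0 of the 8 genes other than slc40a1 passed in limma, edgeR or DESeq2 with all libraries, in either injury state. hmox1a was the 1 gene of the 8 with an unadjusted p under 0.05 in limma, in each state. So had 2.11% of all genes at 1 wpi and 4.46% uninjured. Over all 19114 genes limma called 0.267% at 1 wpi and 0.00% uninjured, where 852 genes had an unadjusted p under 0.05. Over all genes uninjured, edgeR called 0 and DESeq2 84.

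Non-overlap of libraries was common in these groups of 2 and is to be read against all genes. For injury, shares were computed within a genotype only, so nothing is read from the placing of injured against uninjured libraries across genotypes. Injured mutant libraries lay above uninjured ones for 5 of 9 genes (45.3% of all genes) and below them for 2 of 9 (7.48%). Injured wild type libraries lay above uninjured ones for 5 of 9 (36.7%) and below them for 1 of 9 (13.0%). Between genotypes slc40a1 is left aside here, since it was selected for its lower mutant values. At 1 wpi the mutant libraries lay below wild type for hmox1a and slc11a2 (15.6% of all genes). Uninjured, they lay below wild type for hmox1a (15.7% of all genes) and above it for tfr1a (7.42%). In slc40a1, and in 0.633% of all genes, all 4 mutant libraries lay below all 4 wild type libraries. This was the pattern by which slc40a1 was selected, so nothing is read from it.

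A wider list of 61 iron genes outside the 9 was found in the table, of which 58 were expressed highly enough to be tested. In mutants injury raised 6 of the 58 and lowered 0 (3.19% of all genes were called), with a median log2 change of 0.37 as fitted, equal to the 0.37 of all genes. In wild type injury raised 7 and lowered 0 (3.86% of all genes), with a median of 0.19 against 0.29 over all genes. Averaged over genotypes 9 rose and 1 fell (12.2% of all genes were called), with a median of 0.31 against 0.31. The split depended on the tool: for the average, edgeR called 6 higher and 2 lower (7.86% of all genes) and DESeq2 7 higher and 7 lower (14.4%), the lower ones being tfa, fech, gpx4a, glrx5, hpxa, pcbp2 and pcbp3. In wild type DESeq2 called 5 higher and 3 lower (tfa, fech and gpx4a), where 8.93% of all genes were called. In mutants it called 3 higher and 0 lower, where 4.47% of all genes were called. Fitting the 2 groups alone, limma called 7 higher and 2 lower in mutants (hpxa and tfa lower), where 6.35% of all genes were called. In wild type such a fit called 1 (keap1a), where 0.664% of all genes were called. Between genotypes limma, edgeR and DESeq2 on all libraries called 0 of the 58 in either state. With the 1 wpi groups fitted alone limma called 1, fthl31, lower in mutants, where 1.17% of all genes were called. A fit without uninjured wild type 2 leaves uninjured wild type 1, the library rich in liver markers, alone in its group. No count is read from that fit. In limma, 1 of the 58 had an unadjusted p under 0.05 at 1 wpi (2.11% of all genes) and 6 did uninjured (4.46%). The list medians of the genotype difference were 0.06 at 1 wpi and -0.18 uninjured, against 0.02 and -0.06 over all genes.

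Of the uptake and reduction genes, tfr2, known in mammals as a sensor of iron-loaded transferrin, was the 1 call in wild type. It had 10.4 and 7.23 CPM in mutant 1 wpi libraries against 2.095 and 2.51 CPM in uninjured mutants. In wild type it had 10.4 and 9.62 CPM at 1 wpi against 0.0892 and 1.11 CPM uninjured. The injured libraries were alike in both genotypes and the uninjured wild type ones were lowest. The rise relative to all genes was 1.18 ± 0.44 in mutants (SE, limma adjusted p = 0.0853) and 2.57 ± 0.44 in wild type (SE, limma adjusted p = 0.00528), and the difference between genotypes in this rise was not called. Transferrin (tfa) was the 1 gene that fell on average in limma. Its log2 change was -2.66 as fitted (limma adjusted p = 0.0343), or -2.98 ± 0.73 relative to all genes (SE). It had 6.07 and 10.2 CPM in mutant 1 wpi libraries, 6.17 and 9.33 CPM in wild type 1 wpi libraries, 94.9 and 14.8 CPM in uninjured mutants and 311 and 19.05 CPM in uninjured wild type. The 2 libraries with the most tfa were the 2 with the highest liver marker sums.

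In storage, the ferritin heavy chain-like genes fthl28 and fthl31 rose with injury, unlike fth1a. Zebrafish carry several such near-identical copies, and how reads were shared between them is not known, so single values are uncertain. fthl31 had 222 and 189 CPM in mutant 1 wpi libraries against 77.7 and 66.5 CPM in uninjured mutants. Wild type libraries held 366 and 332 CPM at 1 wpi against 127 and 123 CPM uninjured. Both injured libraries of a genotype lay above both of its uninjured ones, as for 45.3% of all genes in mutants and 36.7% in wild type. The rise relative to all genes was 1.13 ± 0.26 in mutants (SE, limma adjusted p = 0.0107) and 1.19 ± 0.26 in wild type (SE, limma adjusted p = 0.00918). fthl28 had 302 and 291 CPM in mutant 1 wpi libraries, 474 and 393 CPM in wild type 1 wpi libraries, 152 and 125 CPM in uninjured mutants and 189 and 155 CPM in uninjured wild type. It rose by 0.73 ± 0.26 in mutants (SE, limma adjusted p = 0.0430) and 1.04 ± 0.26 in wild type (SE, limma adjusted p = 0.0175). Within a genotype none of these 4 calls held under TMM scaling or with edgeR, and DESeq2 kept that of fthl31 in wild type. The call of fthl28 in mutants was also lost with no filter (limma adjusted p = 0.0611).

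Between genotypes, fthl27, the most abundant storage gene, had 1412 and 1300 CPM in mutant 1 wpi libraries against 1887 and 1677 CPM in wild type 1 wpi libraries. Uninjured, it had 1030 and 1073 CPM in mutants against 1563 and 1645 CPM in wild type. All 4 mutant libraries lay below all 4 wild type libraries, as they did in 0.633% of all genes. Among the 61 genes 2 had this pattern, fthl27 and iscub, and nothing is read from it. The log2 difference of fthl27 was -0.39 ± 0.25 at 1 wpi (SE, limma adjusted p = 1.00) and -0.61 ± 0.25 uninjured (SE, limma adjusted p = 0.982). For fthl31 it was -0.76 ± 0.26 at 1 wpi (SE, limma adjusted p = 1.00) and -0.78 ± 0.26 uninjured (SE, limma adjusted p = 0.831). None passed with all libraries in the fit, whereas limma on the 1 wpi groups alone called fthl31 at -0.76 ± 0.13 (SE, adjusted p = 0.00991), where 1.17% of all genes were called. Of all 5 fthl genes, which share sequence, mutant libraries lay below wild type without overlap in 5 at 1 wpi (15.6% of all genes) and in 3 uninjured (15.7%). The 2 further ones, fthl29 and fthl30, were named after their values were seen and stayed under 2.1 CPM, so nothing is read from these counts. Among the other ferritin heavy chain genes, fth1a libraries overlapped between genotypes in each state. Those of fth1b overlapped at 1 wpi and lay below wild type uninjured. Macrophage marker sums, of which apoeb made up the largest share in injured cord, were lower in the mutants of each state as well. The median marker differed by only -0.07 at 1 wpi and -0.13 uninjured, against 0.02 and -0.06 over all genes. The class as a whole was thus not shown to be lower, and its part was not tested.

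**Figure D3:**
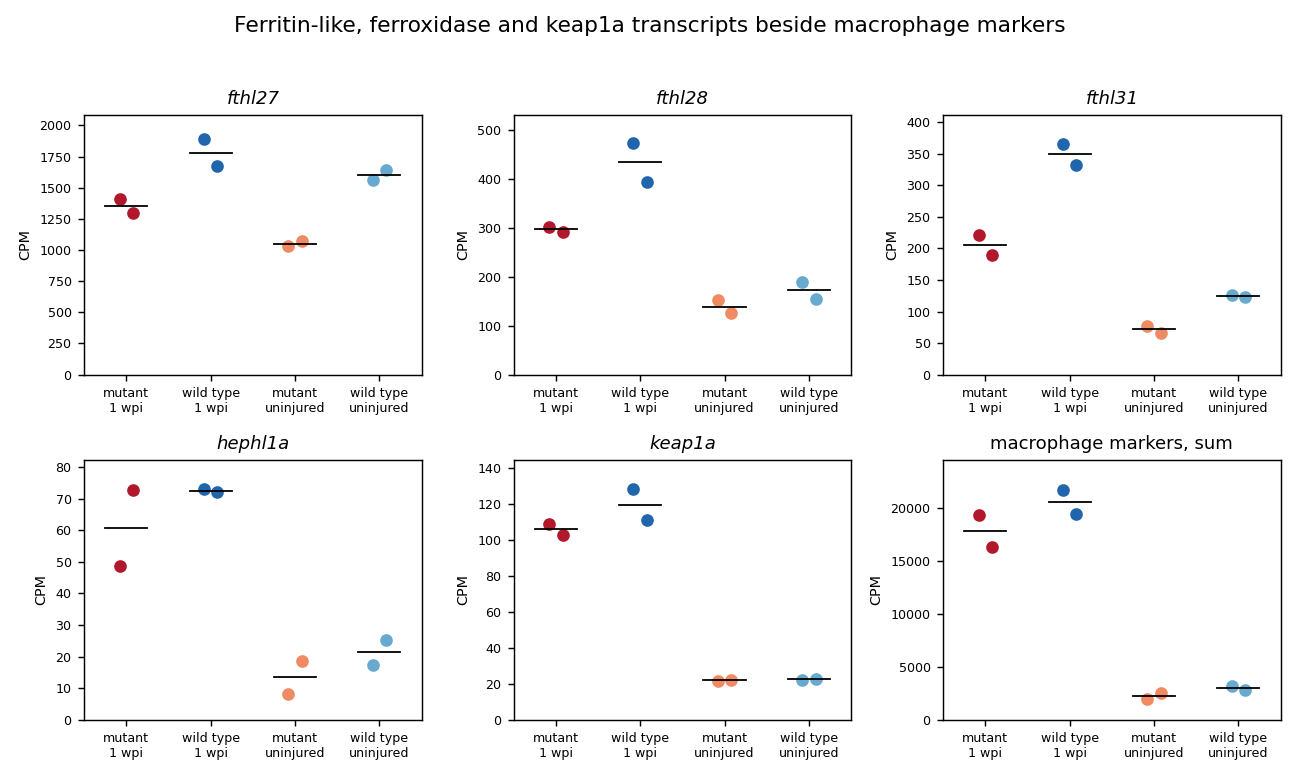
CPM of 3 ferritin-like genes, the ferroxidase gene hephl1a and keap1a, and the summed CPM of 20 macrophage and microglia markers, in each library (dots) with the group mean (line), for mutant 1 wpi, wild type 1 wpi, mutant uninjured and wild type uninjured; every axis is linear and starts at 0. fthl27 is lower in all 4 mutant libraries (1030 to 1412 CPM) than in the wild type libraries (1563 to 1887 CPM), and fthl31, hephl1a, keap1a and the marker sum are higher in injured than in uninjured cord of the same genotype.

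hephl1a, which encodes a membrane-bound copper ferroxidase related to ceruloplasmin, had 48.8 and 72.7 CPM in mutant 1 wpi libraries against 8.20 and 18.7 CPM in uninjured mutants. Wild type libraries had 72.9 and 72.0 CPM at 1 wpi against 17.4 and 25.3 CPM uninjured. The injured libraries were well above the uninjured ones. It rose by 1.80 ± 0.39 in mutants (SE, limma adjusted p = 0.0145) and by 1.45 ± 0.39 in wild type (SE, limma adjusted p = 0.0312) relative to all genes.

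In haem transport, flvcr1 and flvcr2b rose in both genotypes. Both were listed here under haem breakdown and transport. flvcr1 had 91.1 and 123 CPM in mutant 1 wpi libraries, 109 and 108 CPM in wild type 1 wpi libraries, 39.9 and 49.2 CPM in uninjured mutants and 49.9 and 48.6 CPM in uninjured wild type. Its rise was 0.87 ± 0.28 in mutants (SE, limma adjusted p = 0.0348) and 0.83 ± 0.28 in wild type (SE, limma adjusted p = 0.0473), and neither call held under TMM scaling, with edgeR or with DESeq2 (adjusted p = 0.103 in mutants and 0.0723 in wild type). In wild type it was lost with no filter (limma adjusted p = 0.0594) as well. flvcr2b was higher by 1.32 ± 0.40 in mutants (SE, limma adjusted p = 0.0409) and by 1.59 ± 0.40 in wild type (SE, limma adjusted p = 0.0231), with 12.1 and 15.2 CPM in mutant 1 wpi libraries against 2.45 and 4.91 CPM in uninjured mutants, and 17.2 and 19.9 CPM in wild type 1 wpi libraries against 4.73 and 3.91 CPM in uninjured wild type. Its call in mutants was lost under TMM scaling, with edgeR and with no filter (limma adjusted p = 0.0712). slc48a1b, a haem transporter gene, had 13.4 and 8.68 CPM in mutant 1 wpi libraries, 9.06 and 9.67 CPM in wild type 1 wpi libraries, 3.74 and 3.95 CPM in uninjured mutants and 6.07 and 6.25 CPM in uninjured wild type. It was called on average but in neither genotype alone. The average rise was 0.91 as fitted (limma adjusted p = 0.0467), or 0.59 ± 0.27 relative to all genes (SE).

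Among the regulators, keap1a, whose product holds the oxidative stress factor Nrf2 in check, had the steepest rise. It had 109 and 103 CPM in mutant 1 wpi libraries against 21.8 and 22.1 CPM in uninjured mutants. In wild type it had 128 and 111 CPM at 1 wpi against 22.4 and 22.8 CPM uninjured. The groups were tight and far apart. The rise relative to all genes was 1.85 ± 0.27 in mutants (SE, limma adjusted p = 0.00171) and 2.06 ± 0.27 in wild type (SE, limma adjusted p = 0.00105). bach1b, related to the haem-responsive repressor of haem oxygenase genes in mammals, had 21.7 and 22.2 CPM in mutant 1 wpi libraries, 16.6 and 16.7 CPM in wild type 1 wpi libraries, 7.96 and 10.3 CPM in uninjured mutants and 8.43 and 13.99 CPM in uninjured wild type. Its call was likewise on the average alone, a rise of 0.88 as fitted (limma adjusted p = 0.0421), or 0.56 ± 0.25 relative to all genes (SE).

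Leaving out either injured library of the same genotype ended each call within a genotype among these wider iron genes (limma adjusted p from 0.0675 to 0.444), except for keap1a. Its call in wild type held without either, and its call in mutants was lost only without mutant 1 wpi 1 (0.0533). In a fit of the 2 wild type groups alone the wild type calls of tfr2, fthl28, fthl31, hephl1a, flvcr1 and flvcr2b were lost (limma adjusted p from 0.0527 to 0.109). The average calls of tfa, slc48a1b and bach1b were lost without any 1 of the 4 injured libraries and without uninjured mutant 1. These 3 calls were also lost with no filter (limma adjusted p from 0.0567 to 0.0749) and under TMM scaling (limma adjusted p from 0.0560 to 0.182). Those of slc48a1b and bach1b were also lost with edgeR (adjusted p = 0.181 and 0.130) and DESeq2 (0.168 and 0.114). In wild type the calls of hephl1a, fthl28, flvcr1 and flvcr2b were also lost without either injured mutant library. Those of hephl1a and flvcr1 were lost without uninjured wild type 1. In mutants the calls of hephl1a, fthl28, fthl31, flvcr1 and flvcr2b were lost without uninjured mutant 1. Those of fthl28, flvcr1 and flvcr2b in mutants were lost without either injured wild type library, and that of fthl28 without uninjured mutant 2.

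In the lists for hepcidin control (6 genes tested), mitochondrial iron and iron-sulphur clusters (10) and lipid peroxide defence (4), limma called 0 genes in each comparison. For injury averaged over genotypes 5 of these 20 had an unadjusted limma p under 0.05, as had 28.1% of all genes, and edgeR called 1 (fech, with 7.86% of all genes called) and DESeq2 called 3 (fech, glrx5 and gpx4a, with 14.4% of all genes called), all lower. These shares of the 20 lie near those over all genes. Between genotypes 0 of the 20 were at an unadjusted limma p under 0.05 at 1 wpi (2.11% of all genes) and 2 were uninjured (4.46%). Of the 20, edgeR and DESeq2 called 0 in either state. hamp, the hepcidin gene, was named after its values were seen, as the ligand of ferroportin. It had 0.776 and 1.498 CPM in mutant 1 wpi libraries, 0.349 and 0.866 CPM in wild type 1 wpi libraries, 0.569 and 0.678 CPM in uninjured mutants and 2.54 and 1.89 CPM in uninjured wild type. The uninjured wild type libraries held the most, and all 8 libraries stayed low. The most abundant genes of these lists were neo1a (15.8 to 34.2 CPM over the 8 libraries), iscub and gpx4a (276 to 836 CPM). iscub, which encodes a scaffold for iron-sulphur cluster assembly, had 53.1 and 54.5 CPM in mutant 1 wpi libraries against 67.4 and 56.1 CPM in wild type 1 wpi libraries, and 38.8 and 48.2 CPM in uninjured mutants against 79.8 and 82.0 CPM in uninjured wild type. Its uninjured difference was -0.89 ± 0.28 on the log2 scale (SE, limma adjusted p = 0.794). nfe2l2a, an Nrf2 gene and the most abundant regulator, ranged from 75.1 to 155 CPM.

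slc40a1 and mstnb lie on the same chromosome in the RefSeq gene table of GRCz12tu, with 11 genes between them, of which 6 were found in the deposited table. The build behind the deposited values is unknown here, so that table serves for gene order only. asnsd1, which lies nearest to slc40a1 of the 6, was lower in all 4 mutant libraries than in all 4 wild type libraries, as were 0.633% of all genes. It had 16.2 and 13.9 CPM in mutant 1 wpi libraries against 21.7 and 29.3 CPM in wild type 1 wpi libraries, and 8.80 and 17.5 CPM in uninjured mutants against 26.5 and 21.1 CPM in uninjured wild type. The log2 difference of asnsd1 was -0.71 at 1 wpi and -0.87 uninjured. ankar differed by -0.33 at 1 wpi and -0.45 uninjured, with overlapping libraries. The other 4 were mixed: pms1 was at 0.94 at 1 wpi and -0.05 uninjured, adat3 at 0.49 and -0.16 in the same order, ormdl1 at 0.02 and -0.46, and osgepl1 at -0.42 and -0.12. Beyond slc40a1, wdr75 differed by 0.09 at 1 wpi and -0.69 uninjured. Among the 10 measured genes other than mstnb and slc40a1 that were plotted, none came near the -2.32 and -1.78 of slc40a1 or the -1.53 and -1.81 of mstnb. Whether the neighbourhood of the mutated gene has a part in the slc40a1 values was not tested.

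**Figure D4:**
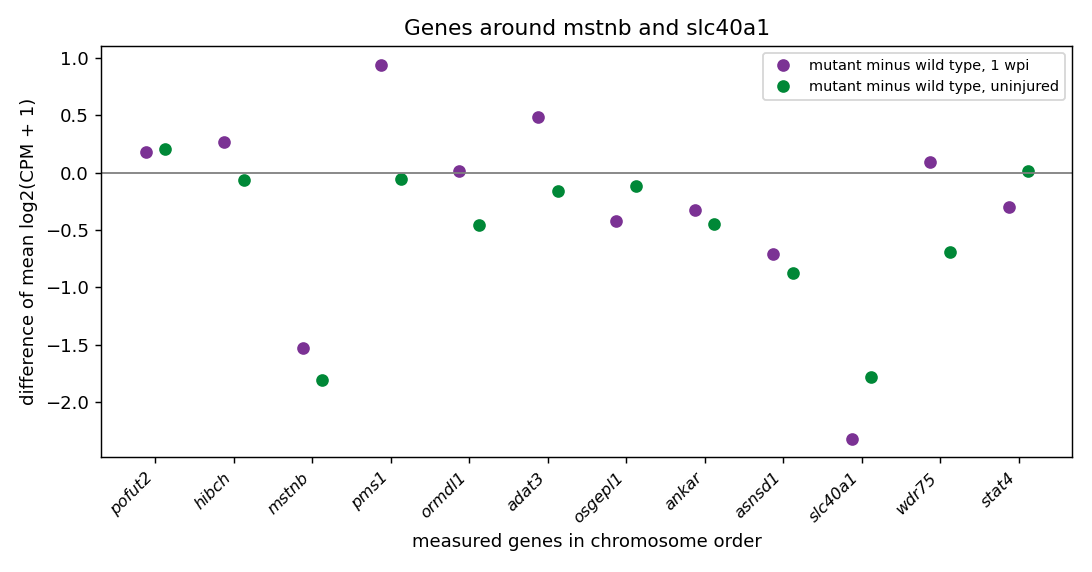
Mutant minus wild type difference of mean log2(CPM + 1) at 1 wpi and in uninjured cord for the measured genes around mstnb and slc40a1, in their order along the chromosome in the GRCz12tu RefSeq table and not to scale. mstnb and slc40a1 are the low points, at -1.53 and -2.32 at 1 wpi, and asnsd1 beside slc40a1 is at -0.71 at 1 wpi and -0.87 uninjured.

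Likeness to slc40a1 was described by Pearson's r of log2(CPM + 1) over the 8 libraries, which share genotype and injury groups, among genes that averaged 5 CPM or more. The most alike were calcoco2 (r = 0.92), kat5b (0.91), rabggtb (0.90), fkbpl (0.90) and arl2bp (0.90), none of them an iron gene. Their differences were much smaller: calcoco2 had 13.2 to 15.3 CPM in mutant libraries and 17.7 to 18.9 CPM in wild type libraries, and rabggtb had 57.1 to 71.4 CPM in mutant libraries and 77.4 to 93.5 CPM in wild type libraries. Ranks were looked up for the 9 iron handling genes only, and not for the wider iron list, fthl27 included. Within the 9, hmox1a was the nearest to slc40a1, at r = 0.51, and its rank was 1005. slc11a2 followed at 0.22, ireb2 at 0.19, tfr1b at 0.06, fth1a at 0.01 and aco1 at -0.17, while tfr1a and cp were too scarce to enter.

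In the authors' deposited table, slc40a1 had a log2 difference, mutant against wild type, of -2.52 at 1 wpi and -1.83 uninjured. In that table aco1 was higher in uninjured mutants than in uninjured wild type by 0.82 (adjusted p = 1.95e-09), a difference for which limma here gave 0.77 ± 0.63 as fitted (SE, adjusted p = 0.982), given the 6.34 and 39.99 CPM of the 2 wild type libraries. For that comparison 5478 of the 25309 entries passed an adjusted p of 0.05 in the authors' deposited table. For injury in wild type 8907 of the 25309 entries passed an adjusted p of 0.05 in the authors' deposited table, among them 6 of the 9 genes. The authors' deposited table gave log2 changes of 1.53 for hmox1a, 1.15 for tfr1b, 1.13 for aco1, 0.60 for slc11a2, -0.79 for fth1a and -1.80 for cp. Of these 6, limma here called hmox1a alone within wild type.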

How the data were processed

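RNA-seq of 8 spinal cord libraries was deposited as 4 tables with the same CPM values, agreeing within a relative difference of 1.13e-08, and 1 comparison by the authors in each. The authors deposited CPM per gene symbol; every value was a whole multiple of 1 read within 0.01 reads (100% of values), which gave back the reads. Other deposited columns, per the file headers, are baseMean (a normalized signal averaged over libraries), a log2 fold change, a test score (stat) and p-values. Bowtie2, Cufflinks and Cuffdiff are named in the submitters' processing notes. For versions, genome build, annotation, counter and strandedness: not given in the sources used here. The column for wild type 1 wpi numbered 3 was placed by its group name, as no label has that number.

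From these CPM, limma 3.58.1 (R 4.3.3, trended prior variance) was fitted to log2(CPM + 1) with 4 group means over all 8 libraries (4 residual degrees of freedom), on the 19114 genes that averaged 1 CPM or more in some group, with Benjamini-Hochberg adjustment over all of them. The design had been written for CPM or counts, and its CPM part was followed. The script was tested on simulated data. There were 6 comparisons: injury in each genotype, injury averaged over genotypes, genotype in each injury state, and the interaction. Alternatives were a pseudocount of 0.25, no filter, a filter at 5 CPM, TMM scaling, edgeR 4.0.16 and DESeq2 1.42.0 on the recovered reads, the replicate number as a block, libraries left out and groups fitted alone. Named genes were the 9 iron handling genes, every gene called in a wider iron list, the most abundant gene of each such list, the 5 genes most alike to slc40a1 and its neighbours. Members and lists were chosen with earlier results of these data known. The wider list missed ftmt, heph, tmprss6, erfe, hmox1b and iscua, not analysed here, and 2 genes over all lists were found under another symbol.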

Additional observations from a re-analysis of the deposited data

How the results depend on the processing

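Directions as fitted turned for few named values (log2). In wild type the injury change of tfr1a turned to 0.77 without wild type 1 wpi 1 and to 0.26 without uninjured wild type 1 (range over single libraries -0.83 to 0.77), and that of ireb2 to -0.10 without uninjured wild type 1 (-0.10 to 0.78); dropping mutant 1 wpi 1 as well gave the same values. In mutants the change of slc40a1 turned to 0.059 without mutant 1 wpi 1 (also with uninjured wild type 1 left out) and to 0.12 without uninjured mutant 2 (-0.21 to 0.12), and that of cp to 0.034 without mutant 1 wpi 1 (-0.67 to 0.034), with or without uninjured wild type 1. The average of slc40a1 turned to -0.12 with TMM scaling, -0.19 with edgeR and -0.21 with DESeq2. The cause was not tested.

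Counts of genes called moved more. Injury in mutants called 610 genes and 382 with no filter, 243 with TMM, 170 with edgeR (where 0 of the 9 iron genes passed), 322 without uninjured wild type 1 and mutant 1 wpi 1, and 1214 with both groups alone. Injury in wild type called 737 and 1707 with DESeq2, 310 without those 2 libraries and 127 with both groups alone (0 of the 9). The average called 2335 and 1503 with edgeR, 1207 without those 2 libraries; each gave 1 of the 9 in place of 3. Genotype at 1 wpi called 51 and 17 with no filter, 0 with TMM or edgeR (427 and 461 at an unadjusted p under 0.05), 148 with DESeq2 and 223 alone. Genotype in uninjured cord called 0 and 84 with DESeq2, 4 without those 2 libraries and 64 alone. The interaction called 108 and 63 with no filter, 36 with TMM, 0 with edgeR (785 unadjusted) and 222 with DESeq2. TMM moved the split of higher and lower calls from 562 and 48 to 184 and 59 in mutants, from 555 and 182 to 411 and 237 in wild type, and from 2104 and 231 to 1049 and 568 on average.

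Leaving out 1 library in turn gave 58 to 1762 genes for injury in mutants, 65 to 3889 in wild type, 827 to 5600 on average, 0 to 142 for genotype at 1 wpi, 0 to 859 uninjured and 0 to 366 for the interaction. Of the iron genes it called 0 to 1 in mutants, 0 to 4 in wild type, 1 to 5 on average, 0 to 0 for genotype at 1 wpi, 0 to 1 uninjured and 0 to 0 for the interaction. hmox1a passed on average in 16 of 16 alternatives.

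Replicate numbers share no stated source, and only numbers 1 and 2 recur; with 2 numbers a group, no comparison has enough pairs to tell whether they pair the libraries. Deviations of same-numbered libraries correlated at 0.20 to 0.30 between the 3 groups that share both numbers. With the replicate number as a block, which leaves wild type 1 wpi 3 with a level of its own, 1378 genes were called for injury in mutants, 1277 in wild type, 177 for genotype at 1 wpi, 167 uninjured and 231 for the interaction. For injury averaged over genotypes the block called 3442 genes. Of the iron genes it called 2 in wild type, hmox1a and aco1, where 6.68% of all genes were called. There aco1 had a limma adjusted p of 0.00666. On average it called 5 (with tfr1a at 0.0406 and aco1 at 0.00118 added), where 18.0% of all genes were called. The calls of flvcr1 in wild type (0.0654) and slc48a1b on average (0.0897) were lost. The mean over both genotypes and the interaction could not be fitted on 2 groups alone. For the scarce tfr1a and cp, the spread between libraries of a group reached 17 against 96 reads (tfr1a, wild type 1 wpi) and 251 against 49 reads (cp, uninjured wild type).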
